A study of Mus musculus with 14 samples.

Results

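The 5 cyclin-dependent kinase inhibitor genes Cdkn1a, Cdkn1b, Cdkn1c, Cdkn2c and Cdkn2d were followed through the Atoh1 lineage of the mouse hindbrain. They were chosen by name, and all 5 were among the 31054 genes counted in each of the 14 single-cell RNA-sequencing libraries. The study asked how the transcription factor Atoh1 shapes the neurons of the pontine nuclei (PN), which send mossy fibers to the cerebellum. TdTomato-positive, DAPI-negative cells were sorted from the hindbrain of C57BL/6J embryos at E14.5 and E18.5, with 3 control and 3 mutant libraries at each stage and 1 embryo per library. At P5, 2 control libraries were made from micro-dissected PN pooled from several pups. Controls were Atoh1Cre/+; Rosa lsl-tdTomato/+ and mutants were Atoh1Cre/S193A; Rosa lsl-tdTomato/+, written Atoh1S193A/- here. Cre replaces the Atoh1 coding region, so the controls also had a single working allele, and the reporter also marks cells that once had Atoh1 and no longer do. S193A is a point substitution that the UMI count of Atoh1 does not check.

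These genes encode brakes on the cell cycle. Cdkn1a (p21), Cdkn1b (p27) and Cdkn1c (p57) form the Cip/Kip family, which binds complexes of cyclins with Cdk2 and, in other ways, with Cdk4 and Cdk6. Cdkn2c (p18) and Cdkn2d (p19) belong to the INK4 family, which binds Cdk4 and Cdk6 and blocks their pairing with D-type cyclins. Cdkn1a is a classical target of p53, Cdkn1b is controlled to a large extent through protein turnover, and Cdkn1c is an imprinted gene transcribed mainly from the maternal allele. The values given here are RNA levels, and none of them measures the proteins.

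After filtering, 80250 cells of 150188 barcodes were kept, with 3248 to 8726 cells and a median of 12010.5 to 20922 unique molecular identifiers (UMIs) per cell in each library. Cells were clustered without the 5 inhibitors and named by marker genes that also left the inhibitors out, so that each name ends in "-like". For each library the UMIs of a state were summed and scaled to counts per 1000000 UMIs of that sum (CPM). All libraries are labelled as neurons, but at P5 the sort also held cells with microglial, oligodendrocyte and astrocyte markers, namely 8.06%, 10.3% and 4.24% of the kept cells. At E14.5 the control and the mutant library of pair 2 stood apart from the others, with 61 and 2 PN differentiated neuron-like cells against 272 to 702 in the other libraries. Any 2 libraries shared 13 to 67 cell barcodes.

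Promoter sequences are shown for a p53-responsive member and for both INK4 members, to give the sequence at the start of genes whose RNA levels are described here. RefSeq windows were used for 4 of the 5 members, and Cdkn1c had no entry in the table used. The 5 genes lie on different chromosomes (GRCm38): Cdkn1a on chromosome 17 (29090976 to 29100727, plus strand), Cdkn1b on chromosome 6 (134920401 to 134925513, plus), Cdkn1c on chromosome 7 (143458339 to 143461050, minus), Cdkn2c on chromosome 4 (109660876 to 109667189, minus) and Cdkn2d on chromosome 9 (21288410 to 21291407, minus). Cdkn1a overlaps the antisense gene AC167363.2, and Cdkn1c overlaps Gm44732 on the other strand. The windows below are RefSeq promoters of GRCm38.p6, 300 bases each and written 5′ to 3′ on the strand of the gene. Capitals mark a p53 response element in the Cdkn1a window and GC boxes (GGGCGG on either strand) in the windows of Cdkn2c and Cdkn2d.
Cdkn1a, chr17:29090729-29091028, plus strand: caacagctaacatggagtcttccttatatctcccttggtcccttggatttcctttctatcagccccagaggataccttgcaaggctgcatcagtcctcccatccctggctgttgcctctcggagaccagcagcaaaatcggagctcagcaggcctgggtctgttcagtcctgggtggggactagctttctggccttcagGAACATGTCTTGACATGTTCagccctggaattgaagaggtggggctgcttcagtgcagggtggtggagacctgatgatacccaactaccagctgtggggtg
Cdkn2c, chr4:109666707-109667006, minus strand: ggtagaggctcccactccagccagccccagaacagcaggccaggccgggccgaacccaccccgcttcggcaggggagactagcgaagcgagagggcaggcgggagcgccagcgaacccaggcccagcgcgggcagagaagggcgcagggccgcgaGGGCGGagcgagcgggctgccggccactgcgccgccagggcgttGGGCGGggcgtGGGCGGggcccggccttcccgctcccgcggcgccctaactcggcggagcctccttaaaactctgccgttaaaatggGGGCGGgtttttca
Cdkn2d, chr9:21291160-21291459, minus strand: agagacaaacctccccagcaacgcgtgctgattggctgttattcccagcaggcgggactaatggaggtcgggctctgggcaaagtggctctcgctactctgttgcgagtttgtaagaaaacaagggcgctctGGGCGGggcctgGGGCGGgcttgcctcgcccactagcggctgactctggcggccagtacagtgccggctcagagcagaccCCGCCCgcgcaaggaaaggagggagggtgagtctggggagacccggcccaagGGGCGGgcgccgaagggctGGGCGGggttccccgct
The p53 response element of Cdkn1a was found with exact core letters and at most 1 mismatch elsewhere, and such a match occurred in 18 of 32851 RefSeq promoters (0.0548%). The Cdkn2c window shown held 4 GC boxes and the Cdkn2d window 5, against at least 1 GC box in 35.7% of all promoters. Cdkn2c and Cdkn1a each had another RefSeq window that is not shown. That of Cdkn2c (chr4:109665323-109665622) held 0 GC boxes, and that of Cdkn1a (chr17:29093519-29093818) held 2 GC boxes and no p53 response element. None of TTTCGCGC, TTTGGCGC, TTTCCCGC or TTTGCCGC, searched on both strands as E2F motifs, was in any of the windows of these 4 members, and 2.26% of all promoters held at least 1 of them. The Cdkn1b window had 1 GC box and 3 CCAAT boxes (a motif in 37.4% of promoters). These matches are letters in a window and were not tied to the RNA levels.

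Across the control states of a stage, the inhibitors had their highest levels in different cells. At E14.5, among states with at least 10 cells in a library, Cdkn1a was highest in PN intermediate progenitor-like cells, Cdkn1b in PN migrating neuron-1-like cells, Cdkn1c in PN differentiated neuron-like cells and, above them, in a class of non-cycling progenitor-like cells and a few fibroblast-like cells, Cdkn2c in cycling progenitors, and Cdkn2d in neurons and cycling progenitors. The clusters were built from these same cells, so differences between states are given as levels and their spread. Exact paired permutation tests over libraries compared neighbors in the order of states for each member. Of 55 neighboring pairs at E14.5 and 55 at E18.5, 0 differed after Benjamini-Hochberg adjustment, with smallest adjusted p of 0.172 and 0.115, and the design could give no raw p below 0.0313 for 6 libraries. Over 55 pairs, an adjusted p below 0.05 would have needed most pairs to stand at that floor. The count of 0 was thus nearly fixed in advance and does not show that neighbors are alike. Neighbors were also set by the control means that entered the tests. The order of neighboring states is given as a description.

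**Figure D1:**
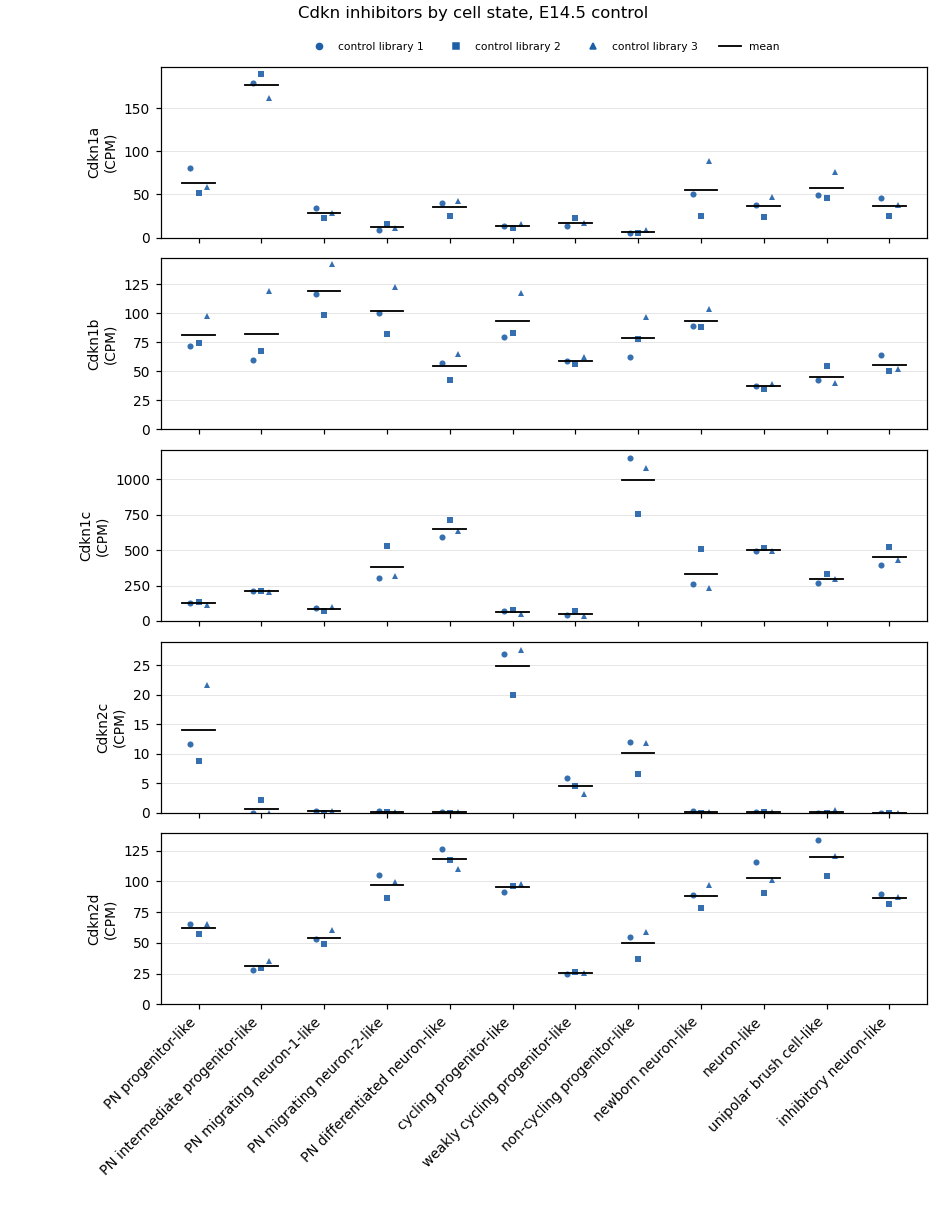
Levels of the 5 inhibitors at E14.5 (y axis, CPM of the summed UMIs, 1 panel per gene with its own linear scale from 0) in 12 cell states (x axis) of the 3 control libraries (points), with the mean as a line. Cdkn1a peaks in PN intermediate progenitor-like cells (176 CPM), Cdkn2c is highest in progenitors (24.9 CPM in cycling progenitor-like cells), and Cdkn1c is higher in PN differentiated neuron-like cells (647 CPM) than in PN progenitor-like cells (124 CPM).

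Cdkn1a, the p53-responsive inhibitor, was high for a short stretch of the PN trajectory at E14.5. PN progenitor-like cells, which have Ccnd1 at 1267 CPM and divide, held 80.9, 51.5 and 58.8 CPM in control libraries 1 to 3. PN intermediate progenitor-like cells held 178, 189 and 162 CPM. PN migrating neuron-1-like cells held 28.5 ± 5.90 CPM (SD, n = 3), PN migrating neuron-2-like cells held 12.04 ± 3.50 and PN differentiated neuron-like cells 36.0 ± 9.22. The 3 intermediate progenitor libraries thus lay above the control libraries of all other named states at E14.5 that had at least 10 cells, and their mean was 14.6 times that of migrating neuron-2-like cells. Outside the PN, cycling progenitor-like cells had 13.2 ± 2.26 CPM and non-cycling progenitor-like cells 6.24 ± 2.23. When each cell was thinned to 5000 UMIs, 37.9% of PN intermediate progenitor-like cells had at least 1 Cdkn1a UMI, against 1.83% of non-cycling progenitor-like cells.

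At E18.5 the few PN intermediate progenitor-like cells held 5.97, 44.0 and 0 CPM in 23, 19 and 10 control cells. Their markers differed from those of the E14.5 state of that name. Nhlh1 was 202 CPM at E18.5 and 17.6 at E14.5, Mapt 125 and 22.3, and Atoh1 272 and 577. Whether the peak was lost between the stages in matching cells was not tested. Among states with at least 10 cells in a library, Cdkn1a was highest in maturing neurons at E18.5. The 13 microglia-like control cells, too few per library for a level, gave 0.760% of the Cdkn1a UMIs from 0.0505% of all UMIs. Granule neuron-like cells, from the cerebellar granule lineage, held 180 ± 8.09 CPM and contributed 46.5% of all Cdkn1a UMIs of control libraries from 19.7% of the cells. Newborn neuron-like cells held 67.8 ± 3.97 and cycling progenitor-like cells 25.4 ± 4.41, so that the level was 7.07 times higher in granule neuron-like than in cycling progenitor-like cells. Among the embryonic PN (ePN) neurons, ePN3-like cells held 203, 167 and 133 CPM, ePN1-like cells 93.6 ± 20.02, ePN2-like cells 63.6 ± 15.2 and PN migrating neuron-like cells 19.99 ± 1.72. The ePN3-like and the migrating libraries did not overlap.

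At P5 all 6 PN subtypes had more Cdkn1a than any progenitor or neuron state of the embryos. The means of 2 libraries ran from 352 ± 5.96 CPM in PN6-like to 627 ± 49.8 in PN4-like cells, with PN5-like cells at 440 ± 25.2 and PN1-like, PN2-like and PN3-like cells between 536 and 556. Granule neuron-like cells of the same libraries held 53.1 ± 21.4 CPM and oligodendrocyte lineage-like cells 26.1 ± 0.116, whereas microglia-like cells held 536 ± 79.0. The high level was thus not shared by all cells of these libraries. Stage, dissection and the pooling of pups cannot be told apart between P5 and the embryos, and with 2 libraries no test was made.

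**Figure D2:**
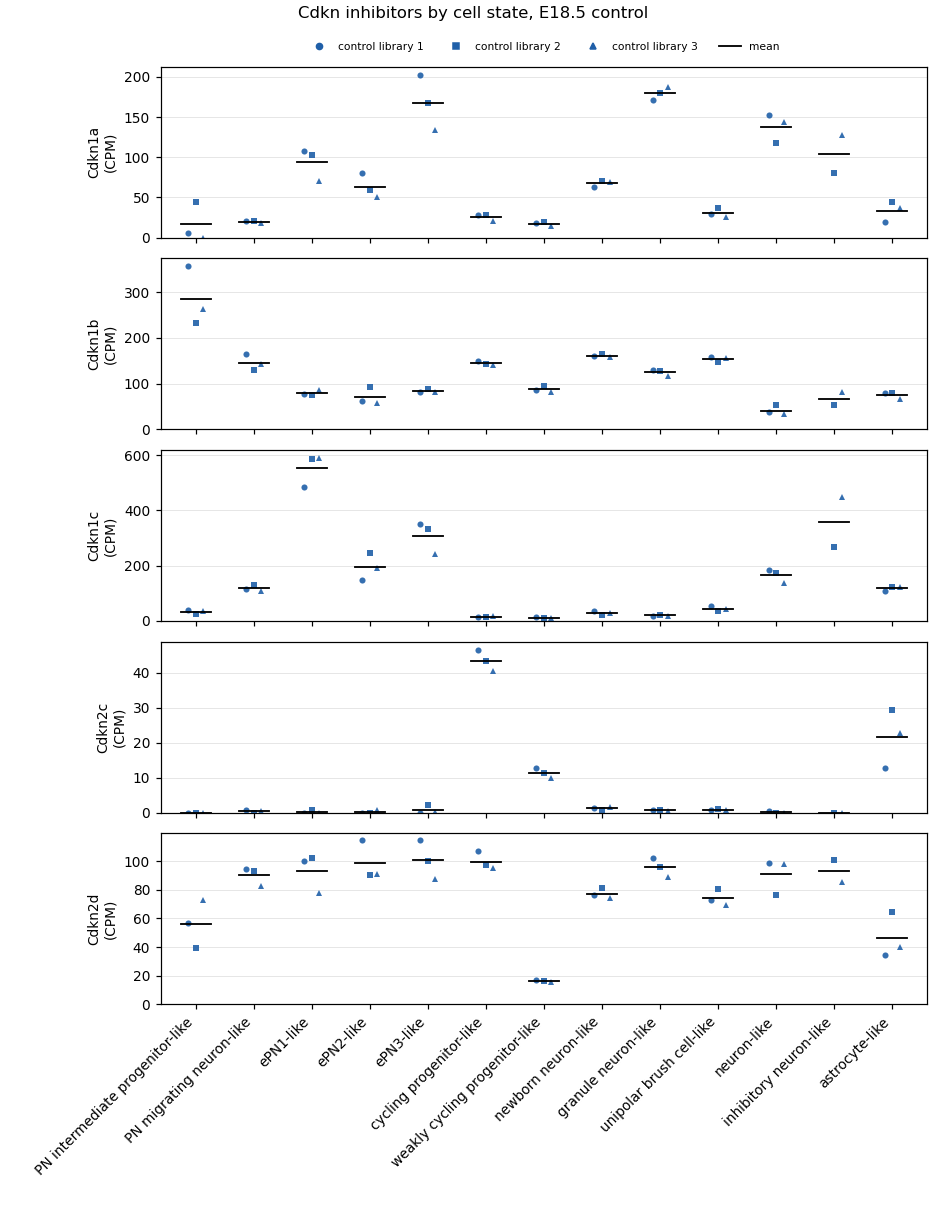
Levels of the 5 inhibitors at E18.5 (y axis, CPM of the summed UMIs, linear scale from 0 in each panel) by cell state (x axis) in the control libraries (points), with the mean as a line. Cdkn1c is at 554 CPM in ePN1-like cells and at 20.3 CPM in granule neuron-like cells, and Cdkn1a is at 180 CPM in granule neuron-like cells.

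Cdkn1b, the Cip/Kip member linked to exit from the cell cycle in many tissues, was detected in every named state. In the PN trajectory at E14.5 the control libraries held 116, 98.8 and 142 CPM in migrating neuron-1-like cells, while PN progenitor-like cells had 80.9 ± 14.2 CPM, their intermediate progenitors 82.1 ± 32.3, migrating neuron-2-like cells 102 ± 20.1 and the differentiated neurons 54.9 ± 11.1. The level in migrating neuron-1-like cells was 2.17 times that in differentiated neuron-like cells, and their libraries did not overlap. At E18.5 the highest level was in the PN intermediate progenitor-like cells, with 358, 233 and 263 CPM from 52 control cells in all. Newborn neuron-like cells followed with 161 ± 3.25 CPM, unipolar brush cell-like cells with 154 ± 4.68, PN migrating neuron-like cells with 145 ± 17.3 and cycling progenitor-like cells with 145 ± 4.30. The ePN1-like to ePN3-like neurons held 71.4 to 84.0 CPM and neuron-like cells 40.8 ± 10.4. The ePN1-like to ePN3-like and neuron-like means thus sat below those of the newborn and migrating cells. At P5 the PN subtypes lay between 42.6 ± 2.98 CPM (PN6-like) and 101 ± 0.399 (PN2-like), and granule neuron-like cells held 176 ± 73.4. The highest P5 levels were those of weakly cycling progenitor-like cells, at 245 CPM, and of cycling progenitor-like cells, at 231 CPM, each from the 1 library with enough cells.

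Cdkn1c, the imprinted member, had the widest range in absolute CPM, though not by ratio. Along the PN trajectory at E14.5 the control libraries held 114 to 132 CPM in progenitor-like cells, 206 to 214 in intermediate progenitor-like cells, 72.1 to 102 in migrating neuron-1-like cells, 306 to 526 in migrating neuron-2-like cells and 594 to 714 in differentiated neuron-like cells. The 3 libraries of each of these 5 states did not overlap with those of the next state in this series. The level in differentiated neuron-like cells was 7.38 times that in migrating neuron-1-like cells. Outside the PN, neuron-like cells held 499 ± 10.17 CPM, inhibitory neuron-like cells 447 ± 65.5 and cycling progenitor-like cells 63.97 ± 13.7. Non-cycling progenitor-like cells held 1150, 753 and 1075 CPM, and this class was uneven, because its cluster led by Fabp7 and Hes5 held 1353 ± 64.7 and its cluster led by Msx1 held 107 ± 50.9. The name of this class does not mean that none of its cells divided. Its control mean of Mki67 was 75.3 CPM, against 36.7 in weakly cycling progenitor-like and 332 in cycling progenitor-like cells. A small group of fibroblast-like cells had 896 and 1597 CPM in the 2 control libraries with enough cells.

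At E18.5 much of the Cdkn1c RNA of control libraries came from PN neurons. The ePN1-like cells, marked by Kctd12 and Prox1, held 484, 587 and 590 CPM and gave 22.0% of all Cdkn1c UMIs from 2.11% of the cells. The ePN3-like cells held 349, 334 and 242 CPM and gave 14.47% of the UMIs, and the ePN2-like cells held 148, 245 and 190 CPM and gave 10.7%. ePN1-like libraries lay above all ePN2-like and ePN3-like ones, and the ePN1-like mean was 2.85 times the ePN2-like mean and 4.67 times that of PN migrating neuron-like cells (119 ± 10.3). Cells of the granule lineage were low, with 15.7 ± 0.953 CPM in cycling progenitor-like, 12.2 ± 1.08 in weakly cycling progenitor-like, 28.4 ± 5.80 in newborn neuron-like and 20.3 ± 1.63 in granule neuron-like cells. Unipolar brush cell-like cells held 44.99 ± 9.31, and outside the PN the highest mean was that of inhibitory neuron-like cells (358 ± 130, n = 2). Within ePN1-like cells the cluster led by Lrrc4c and Calb2 held 800 ± 84.4 CPM, the cluster led by Kctd12 held 457 ± 67.8, and the small cluster led by Nr2f2 (44 control cells) held 102 ± 48.7 in the 2 libraries with enough cells.

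At P5 PN3-like cells stood above the other named PN subtypes. PN3-like cells held 382 and 432 CPM in the 2 libraries and gave 35.6% of the Cdkn1c UMIs from 9.04% of the cells. The other subtypes held 80.5 ± 4.43 CPM (PN5-like), 78.3 ± 8.84 (PN2-like), 30.5 ± 5.31 (PN4-like), 21.0 ± 0.958 (PN1-like) and 10.1 ± 6.18 (PN6-like), so that the PN3-like mean was 5.06 times the next highest one among named subtypes. The PN-like cells left without a subtype name were more numerous than the PN3-like cells (1787 against 1266) and also rich in Cdkn1c, with 196 and 269.6 CPM in the 2 libraries and 22.9% of the UMIs. PN3-like and ePN1-like cells were named by overlapping marker lists (Kctd12, Prox1, Meis2, Zbtb20 and Syt4 are in both), from which Cdkn1c itself had been left out. Both lists come from the study, which drew them from these same libraries and names Cdkn1c as a marker of PN3. The high Cdkn1c of cells so named is therefore not independent of the naming. Other Cdkn1c-high cells at P5 were unipolar brush cell-like cells (526 ± 54.4 CPM), fibroblast-like cells (594 ± 52.8) and the oligodendrocyte lineage (282 ± 24.8). Within that lineage the Pdgfra-led cluster of precursors held 77.1 ± 9.24 CPM and the Bcas1-led cluster 418 ± 19.7.

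**Figure D3:**
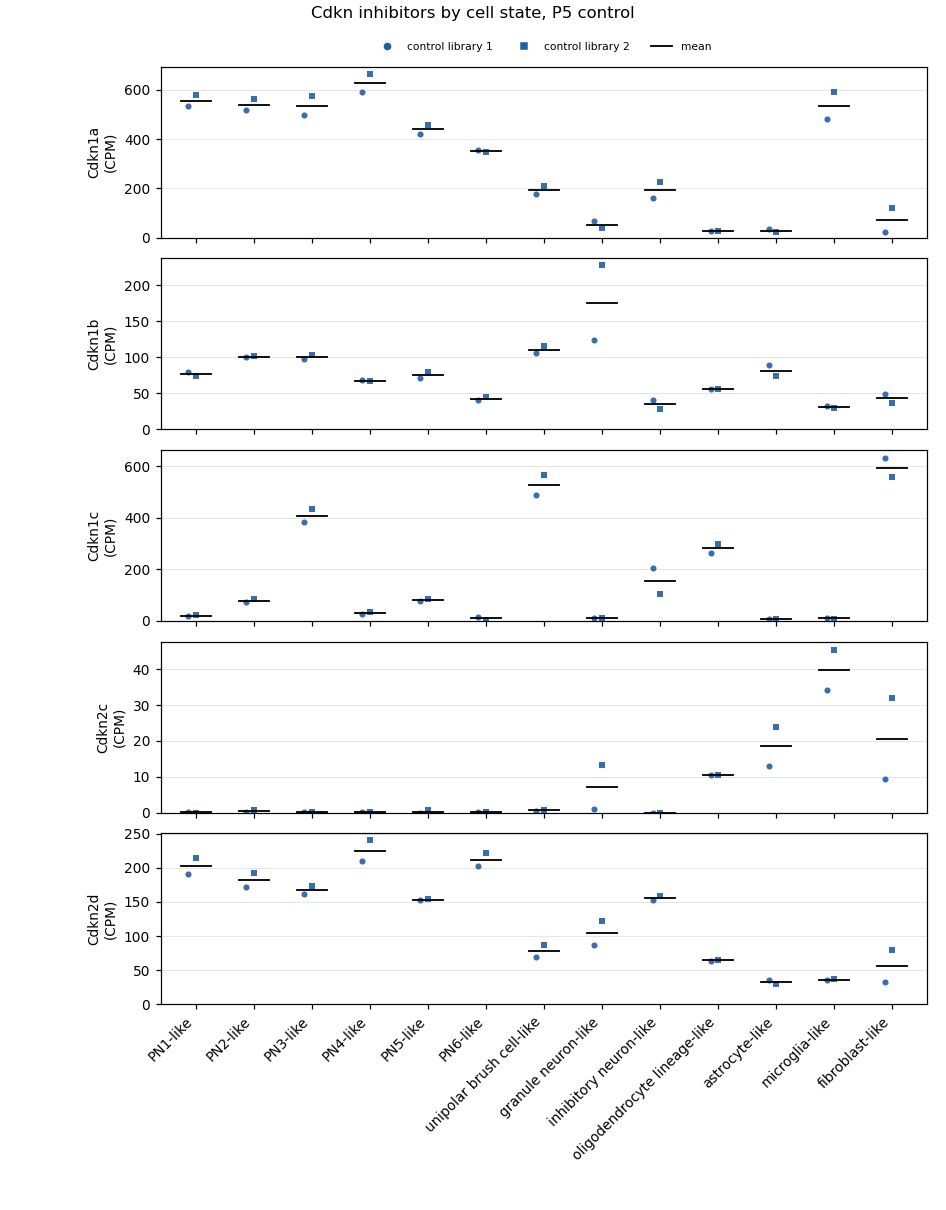
Levels of the 5 inhibitors at P5 (y axis, CPM of the summed UMIs, linear scale from 0 in each panel) by cell state (x axis) in the 2 control libraries (points), with the mean as a line. PN3-like cells are the named PN subtype with the most Cdkn1c (407 CPM), and the 6 PN subtypes have 352 to 627 CPM of Cdkn1a.

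Cdkn2c, an INK4 member, was highest in dividing cells among the control states with at least 10 cells in a library, and was found at lower levels in other progenitors and in glial, fibroblast-like and vascular cells. The few microglia-like cells at E18.5 were an exception, with 0.177% of the Cdkn2c UMIs from 0.0505% of all UMIs in the 13 control cells and 75.1 CPM from 10 UMIs in the 13 cells of 1 mutant library. Cycling progenitor-like cells held 26.9, 20.03 and 27.6 CPM at E14.5 and 46.5, 43.3 and 40.4 CPM at E18.5 in controls. These cells gave 71.1% of the Cdkn2c UMIs from 7.30% of the cells at E14.5, and 81.6% from 20.3% at E18.5. PN progenitor-like cells held 11.6, 8.78 and 21.7 CPM, and their mitotic part, led by Ube2c, held 22.0 ± 9.07. The level was 0.699 ± 1.21 CPM in PN intermediate progenitor-like cells and 0.202 CPM or less as a mean in the 3 later PN states. In 720 inhibitory neuron-like cells at E14.5 no UMI was counted, which allows up to 0.284 CPM. At P5 the highest class was that of cycling progenitor-like cells, with 77.7 CPM in the 1 library with enough cells and 17.7% of the UMIs. Microglia-like cells gave 40.5% of the UMIs with 39.8 ± 8.005 CPM, and their Mki67-led cluster held 130 ± 22.4, fibroblast-like cells held 20.7 CPM and astrocyte-like cells 18.49, whereas the PN subtypes held 0.140 to 0.407 CPM. Granule neuron-like cells at P5 held 1.05 CPM in library 1 and 13.4 in library 2. At each stage, therefore, the cells rich in Cdkn2c included those with the mitotic markers used for naming, and the PN neurons were near 0.

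Cdkn2d, the other INK4 member, was present both in dividing cells and in neurons. At E14.5 cycling progenitor-like cells held 91.5, 96.7 and 98.2 CPM and PN differentiated neuron-like cells 127, 117 and 110. Between them, PN progenitor-like cells held 62.5 ± 4.55, intermediate progenitor-like cells 30.8 ± 3.89, migrating neuron-1-like cells 54.3 ± 5.89 and migrating neuron-2-like cells 97.1 ± 9.61. The lowest PN value of Cdkn2d thus fell in the state with the highest Cdkn1a. Weakly cycling progenitor-like cells were lowest at both embryonic stages, with 25.6 ± 0.772 CPM at E14.5 and 16.3 ± 0.510 at E18.5, where cycling progenitor-like cells held 6.10 times more. At E18.5 the ePN1-like to ePN3-like neurons held 93.4 to 101 CPM and granule neuron-like cells 95.8 ± 6.37. At P5 the PN subtypes held 153 ± 1.26 (PN5-like) to 225 ± 21.7 CPM (PN4-like), and astrocyte-like cells held 32.7 ± 3.38.

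Over 40 control means of named classes and states from all 3 stages, the pattern of Cdkn2c was most like that of E2f8, Iqgap3 and Depdc1a (Pearson r of 0.94, 0.93 and 0.93 on the log2(CPM + 1) scale, among 11797 genes). Cdkn2d was most like Ywhah, Zwint and Calm2 (0.86, 0.85 and 0.85), Cdkn1b most like Nfia, Tcf4 and Ubtf (0.84, 0.78 and 0.77), and Cdkn1a most like Usp14, Atp6ap2 and Vgf (0.83, 0.83 and 0.82). Cdkn1c had no close partner, and Maged1, Rarb and Svbp came nearest (0.66, 0.63 and 0.60). Between the members themselves, r was 0.53 for Cdkn1a with Cdkn2d and -0.53 for Cdkn2c with Cdkn2d, and lay between -0.35 and 0.07 for the other pairs. The 40 points share libraries, depth and nested cell sets, so these are descriptions.

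Control libraries were next compared between E14.5 and E18.5 with edgeR over all genes seen in enough cells (10% or more of those of either group), and a gene was called at an adjusted p below 0.05 with an absolute log2 change above 0.25. In all sorted cells Cdkn1c held 327, 447 and 361 CPM at E14.5 and 45.4, 48.7 and 76.3 at E18.5, a fall by 2.81 on the log2 scale (SE 0.24, adjusted p = 0.000476). Cdkn2c held 4.70, 1.88 and 4.45 CPM and then 17.1, 15.8 and 12.5, a rise of 1.96 (SE 0.33, adjusted p = 0.00303). The groups did not overlap for any of the 5 members. The share of all genes without overlap was not counted, so this does not set the members apart. Cdkn1b rose by 0.87 (SE 0.12, adjusted p = 0.00151), Cdkn1a by 0.76 (SE 0.21, adjusted p = 0.0194), and Cdkn2d fell by 0.27 (SE 0.068, adjusted p = 0.0139). All 5 members were called, beside 51.6% of the 10291 genes tested, so a call as such does not set the members apart. The Cdkn2d call was made in 5 of 9 alternatives. It was lost without E14.5 control 3 (-0.22), without E18.5 control 2 (adjusted p = 0.0578), with a mitochondrial limit of 4% (-0.17, adjusted p = 0.105) and, below the fold limit, without the detection filter (-0.25), and the Cdkn1a call was lost without E18.5 control 3 (adjusted p = 0.0502). In such sums, fewer cells of a type and less RNA per cell cannot be told apart.

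Within classes the fall of Cdkn1c was also present. Cycling progenitor-like control cells held 69.2, 74.2 and 48.5 CPM at E14.5 and 16.1, 14.6 and 16.3 at E18.5, a fall by 2.03 (SE 0.14, adjusted p = 1.23e-05). In newborn neuron-like cells it held 260, 507 and 232 CPM and then 34.4, 22.8 and 28.2, a fall by 3.63 (SE 0.33, adjusted p = 0.00022). Groups did not overlap in either class, and without E14.5 control 2 the falls were 1.91 and 3.18. In cycling progenitor-like cells Cdkn1a rose by 0.90 (SE 0.17, adjusted p = 0.00257), Cdkn2c by 0.77 (SE 0.13, adjusted p = 0.00139) and Cdkn1b by 0.60 (SE 0.16, adjusted p = 0.0119), while Cdkn2d had 91.5 to 98.2 CPM and 95.03 to 107 CPM (log2 difference 0.04, adjusted p = 0.683). In newborn neuron-like cells Cdkn1b held 88.9, 88.1 and 104 CPM and then 161, 164 and 158, a rise of 0.70 (SE 0.088, adjusted p = 0.000808). Cdkn2d fell by 0.27 there (SE 0.093, adjusted p = 0.0489), a call that was lost with DESeq2 (adjusted p = 0.06) and in 5 of 6 fits without 1 library. Cdkn1a differed by 0.21 (adjusted p = 0.672), and it was called in 2 of 10 alternatives, without E14.5 control 3 (0.78, adjusted p = 0.0455) and at a finer clustering (0.97, adjusted p = 0.0403), while it was -0.14 without E14.5 control 2. Cdkn2c passed only without the detection filter there (3.30, adjusted p = 0.00857).

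In these classes 4 of 5 and 3 of 4 tested members were called, beside 45.2% and 40.1% of all tested genes. The 2 stages sample different lineages under 1 class name, and the markers moved with the inhibitors. In cycling progenitor-like control cells Mki67 was 332 CPM at E14.5 and 898 at E18.5, and Atoh1 was 133 and 53.6. In newborn neuron-like cells Hoxb3, a hindbrain Hox gene of the PN, was 43.7 and 2.28 CPM, and Sst was 151 and 3.58. Clusters of the cycling class held Cdkn1c at 57.4, 79.7 and 119 CPM at E14.5, and at most 21.9 CPM at E18.5. The part of lineage makeup in the fall of Cdkn1c was not tested.

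**Figure D4:**
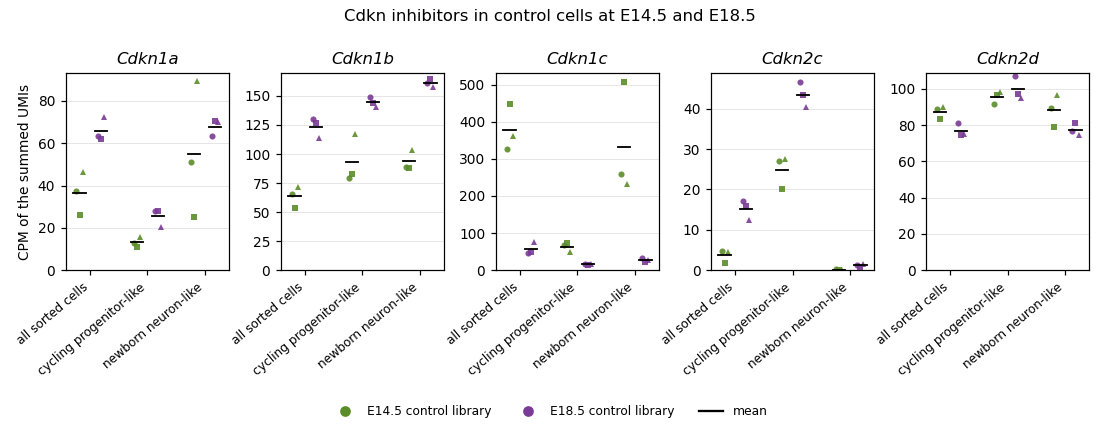
Levels of each inhibitor (y axes, CPM of the summed UMIs, linear from 0, a different scale in each panel) in all sorted, cycling progenitor-like and newborn neuron-like control cells (x axis) at E14.5 and E18.5, 3 libraries each (points), with the mean as a line. Cdkn1c is lower and Cdkn1b is higher at E18.5 in all 3 sets, both without overlap.

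Genes that act with the inhibitors were counted in the same fits, beside the 45.2% of all genes called in cycling progenitor-like cells, 40.1% in newborn neuron-like cells and 51.6% in all sorted cells. In cycling progenitor-like cells, 4 of 12 tested cyclin and CDK genes rose and 3 fell (median log2 change -0.03, against 0.01 over all genes), led by Cdk6, a kinase that INK4 proteins bind, which rose by 3.04 from 11.3 to 93.4 CPM, and Ccnd3, which fell by 1.401. Of 13 pocket protein and E2F genes 6 rose and 2 fell, among them E2f6, a repressor E2F, which fell by 0.83. Of 17 tested p53 targets 4 rose and 4 fell, with Pmaip1 up by 3.28 (1.34 to 13.3 CPM), Sesn2 up by 2.59 and Plk2 down by 2.63. Of 11 genes for turnover of the inhibitors 2 rose and 1 fell, and of 4 tested genes near Cdkn1c in its imprinted domain 1 rose and 3 fell. The gene that rose was Kcnq1ot1, the non-coding RNA of that domain (0.88). In newborn neuron-like cells, Cdk6 rose by 3.51, Ccnd2 by 2.00 and Pmaip1 by 3.81, and Plk2 fell by 2.79, Ccnd3 by 1.23 and E2f6 by 1.00.

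In all sorted cells, 8 of 12 cyclin and CDK genes rose and 2 fell (median 1.06), and 7 of 13 pocket protein and E2F genes rose and 1 fell (median 0.62). The largest rises were of Cdk6 (3.43), Ccne2 (1.88) and Ccnd2 (1.86), and the largest falls were of Plk2 (-1.41), Phlda3 (-0.72) and Aen (-0.54), all p53 targets. Of 14 tested p53 targets 2 rose and 6 fell (median -0.13), and Cdkn1a itself rose. Of 4 tested neighbors of Cdkn1c 1 rose and 2 fell, and 4 of 11 turnover genes rose.

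Control and Atoh1S193A/- libraries were compared within each state without pairing the littermates, and 1 test of a member was called in all of them. Further tests were called with littermates as pairs, and these are given with each comparison. Where groups are said not to overlap, the share of all genes without overlap was not counted. In an exact two-sided permutation test, 3 libraries that separate fully from 3 give p = 0.1. At E14.5, 21 tests of members in 5 PN-like states gave 0 calls with edgeR and 0 with DESeq2, and 2 had an unadjusted p below 0.05. Of all genes, 0.00991% were called in PN progenitor-like cells, 0.0220% in their intermediate progenitors, 0.0214% and 0% in migrating neuron-1-like and neuron-2-like cells, and 0% in the differentiated neurons. Cdkn1c in PN differentiated neuron-like cells held 594, 714 and 632 CPM in controls and 449 and 538 in the mutants 1 and 3, since mutant 2 had too few cells. The 2 groups did not overlap, and the difference of -0.45 was not called (SE 0.13, adjusted p = 0.978). With littermates as pairs it was called (-0.36, adjusted p = 0.00956), beside 1.15% of all genes called in that paired fit. In PN intermediate progenitor-like cells, Cdkn1c held 213, 214 and 206 CPM in controls and 314, 125 and 405 in mutants, which overlap, and the difference of 0.41 (SE 0.32, adjusted p = 0.9998) was called only without mutant 2 (0.77, adjusted p = 0.0354), where 0.265% of all genes were called. Cdkn1a in the same cells held 178, 189 and 162 CPM in controls and 243, 199 and 215 in mutants, a difference of 0.30 (SE 0.13, adjusted p = 0.9998).

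At E18.5, 16 tests in 4 PN-like states gave 0 calls with edgeR, 1 with DESeq2 and 3 unadjusted p below 0.05, beside 0% of all genes called in ePN1-like, 0% in ePN2-like, 0% in ePN3-like and 0.0522% in PN migrating neuron-like cells. The DESeq2 call was Cdkn1c in ePN3-like cells. It held 349, 334 and 242 CPM in controls and 215, 207 and 173 in mutants, and the groups did not overlap. The edgeR difference was -0.65 (SE 0.12, unadjusted p = 8.64e-05, adjusted p = 0.441). It was called with DESeq2 (-0.65, adjusted p = 0.0163), with littermates as pairs (-0.64, adjusted p = 6.57e-05) and without control 3 (-0.79, adjusted p = 0.0101), and over 11 alternatives it lay between -0.79 and -0.55. Of all genes, 0.0196% were called with DESeq2, 0.0196% with pairs and 0.00975% without control 3. Of the 4 clusters of ePN3-like cells, 3 had enough cells in both genotypes, and 1 of these held the difference. The cluster led by Hoxa5, Hoxc4 and Hoxb5 held 686 ± 111 CPM in controls and 313 ± 21.8 in mutants (n = 3 each, no overlap), whereas the cluster led by Calb1 held 137 ± 38.7 and 135 ± 50.2 and the one led by Lmo3 held 130 ± 29.4 and 134 ± 16.1. The Hoxa5-led cluster made up 30.8 ± 9.56% of ePN3-like cells in controls and 29.7 ± 5.70% in mutants. These clusters were singled out after their values were seen and are not tested.

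In the other PN-like states at E18.5 Cdkn1c moved less or the other way. Cdkn1c held 117, 129 and 109 CPM in PN migrating neuron-like controls and 139, 151 and 182 in mutants, without overlap. The difference of 0.39 was not called (SE 0.11, adjusted p = 0.873). In ePN1-like cells the means were 554 ± 60.1 and 527 ± 38.2 CPM (-0.08, SE 0.12), and in ePN2-like cells 194 ± 48.5 and 180 ± 25.3 (-0.14, SE 0.14). A further set held all PN-like cells outside the progenitor and migrating states, among them 130 control cells left without a state name. Thinned to 5000 UMIs per cell, the share of its cells with a Cdkn1c UMI was 54.0%, 58.7% and 58.9% in controls and 51.9%, 57.3% and 46.7% in mutants. The difference of -5.22 percentage points had p = 0.2 in a two-sided exact permutation test, whose smallest possible p is 0.1. The difference was -10.03 points when cells were thinned to 3000 UMIs, -8.71 for cells with 2 or more UMIs and -5.82 at a finer clustering, each with that smallest p in the exact test, and it was -2.59 without mutant 3. The mutant share was lower in all 3 littermate pairs. With littermates as pairs the exact test gave p = 0.25, the smallest it could give. The makeup of this set differed between the genotypes, because ePN1-like cells, the richest in Cdkn1c, were 27.5%, 25.4% and 25.7% of its cells in controls and 9.69%, 8.81% and 8.91% in mutants, with no overlap. The part of that makeup in the share was not tested. Median depths were 16116 to 22364 UMIs, and without thinning the shares were 69.5% to 79.4%. For comparison, 3.96% to 6.49% of weakly cycling progenitor-like cells, a class low in Cdkn1c, had such a UMI after thinning, at median depths of 11937 to 18176.

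**Figure D5:**
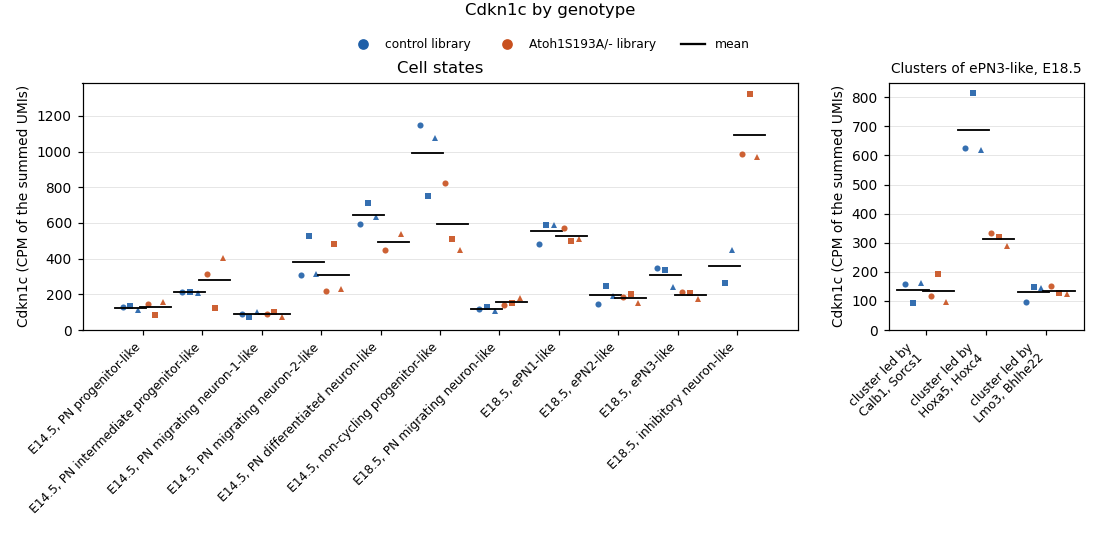
Cdkn1c levels (y axes, CPM of the summed UMIs, linear from 0) in control and Atoh1S193A/- libraries (points, mean as a line) for 11 cell states (left) and for 3 clusters of the ePN3-like cells at E18.5 (right). In ePN3-like cells the controls (242 to 349 CPM) lie above the mutants (173 to 215 CPM), and of the 3 clusters shown the one led by Hoxa5 and Hoxc4 holds the gap.

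Outside the PN 1 call was made. In inhibitory neuron-like cells at E18.5 Cdkn1c held 266 and 450 CPM in controls 2 and 3 and 987, 1324 and 972 in the mutants. The mutants were higher by 1.56 on the log2 scale (SE 0.23, adjusted p = 0.0253), beside 0.0295% of all genes called there. The libraries gave only 19 and 47 control and 25 to 62 mutant cells, and control 1, with 5 cells, did not enter. The call was lost without mutant 1 (adjusted p = 0.086), mutant 2 (0.0558), mutant 3 (0.084) or control 2 (0.0577), and with a mitochondrial limit of 4% (0.0867). It was made without control 3 (2.04, adjusted p = 0.000357) and with DESeq2 (adjusted p = 2.58e-05), beside 0.482% and 0.0295% of all genes. With littermates as pairs, which leaves 2 pairs, the difference was 1.66 (adjusted p = 4.30e-10), beside 0.413% of all genes. The share of these cells with a Cdkn1c UMI, thinned to 5000 UMIs per cell, was 65.5 ± 17.4% in the 2 control and 65.4 ± 2.21% in the 3 mutant libraries, and unthinned it was 80.9% and 75.3%. Leaving out either control leaves a single control library, which edgeR then assumes to vary like the mutants. Ccnd2, a D-type cyclin and 1 of 4 cyclin and CDK genes tested there, rose as well, from 33.0 to 196 CPM (log2 difference 2.27, SE 0.31, adjusted p = 0.0146). At E14.5 the same class held 447 ± 65.5 CPM of Cdkn1c in controls and 425 ± 98.9 in mutants (-0.11, SE 0.16).

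The other 7 classes at E18.5 gave no call of a member. Of all genes, 0.261% were called in cycling progenitor-like, 0.655% in weakly cycling progenitor-like and 0.0112% in unipolar brush cell-like cells, and 0% in granule neuron-like, 0% in newborn neuron-like, 0% in neuron-like and 0% in astrocyte-like cells. In the 8 classes together 5 of 35 member tests had an unadjusted p below 0.05, and DESeq2 made the same number of calls, 1. Cdkn1a in weakly cycling progenitor-like cells held 18.3, 19.6 and 14.3 CPM in controls and 14.6, 15.4 and 11.7 in mutants, which overlap. The difference was -0.34 (SE 0.14, adjusted p = 0.584), and it was called with littermates as pairs (adjusted p = 0.0481), where 3.06% of all genes were called.

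At E14.5, 28 member tests in 7 classes outside the PN gave 0 calls with edgeR and 0 with DESeq2, and 3 had an unadjusted p below 0.05. Of all genes, 0.0101% were called in the non-cycling progenitors and 0% in every one of the cycling progenitor-like, weakly cycling progenitor-like, newborn neuron-like, neuron-like, unipolar brush cell-like and inhibitory neuron-like classes. In non-cycling progenitor-like cells Cdkn1c held 1150, 753 and 1075 CPM in controls and 822, 510 and 450 in mutants, which overlap. The difference of -0.76 (SE 0.25, adjusted p = 0.956) was called with littermates as pairs (-0.79, adjusted p = 0.0494), beside 0.764% of all genes, and it changed sign at a finer clustering (0.35, adjusted p = 0.996). The cluster rich in Cdkn1c, led by Fabp7, made up 73.3 ± 11.6% of this class in controls and 50.8 ± 23.5% in mutants. In weakly cycling progenitor-like cells Cdkn1a held 12.9, 22.3 and 17.03 CPM in controls and 7.03, 8.17 and 6.97 in mutants, with no overlap, and the difference of -1.25 was not called (SE 0.25, unadjusted p = 0.000657, adjusted p = 0.358).

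In all sorted cells 0 of 4 tested members was called between genotypes at E14.5 and 0 of 5 at E18.5 with edgeR, beside 0.00977% and 0% of all genes, with 1 and 0 members at an unadjusted p below 0.05 and 0 calls with DESeq2. At E14.5 Cdkn1c held 327, 447 and 361 CPM in controls and 252, 393 and 281 in mutants (-0.33, SE 0.19, adjusted p = 0.531), and Cdkn2d 89.0, 83.6 and 89.8 against 81.3, 69.3 and 72.4 (-0.26, SE 0.096, adjusted p = 0.399). The mutant was lower in all 3 littermate pairs for both genes. With littermates as pairs both were called, Cdkn1c at -0.33 (adjusted p = 0.0111) and Cdkn2d at -0.27 (adjusted p = 0.0225), but that paired fit called 17.6% of all genes, so that a call there is common. The makeup of the E14.5 libraries differed as well, since PN progenitor-like cells were 2.22%, 1.83% and 1.28% of the cells in controls and 7.501%, 4.57% and 7.87% in mutants, and cycling progenitor-like cells 8.005%, 4.64% and 9.52% against 14.3%, 7.98% and 12.7%. Both states held less Cdkn1c than the neurons. PN progenitor-like cells also held less Cdkn2d, whereas cycling progenitor-like cells held 95.5 CPM of it in controls, above all 3 control libraries of all sorted cells. The part of this makeup in the differences was not tested. The sign was also the same in all 3 pairs for Cdkn1a (0.18, 0.20 and 0.03) and Cdkn2c (0.81, 0.14 and 0.60) at E14.5, both higher in mutants, and for Cdkn1c at E18.5 (-0.15, -0.24 and -0.22), and of these Cdkn1a and Cdkn1c were not called with or without pairs and Cdkn2c did not pass the detection filter. A genotype by stage interaction was called for 0 of 5 members and 0% of all genes. The smallest p was that of Cdkn2d, for which the genotype difference at E18.5 minus that at E14.5 was 0.35 (SE 0.099, unadjusted p = 0.00465, adjusted p = 0.523, and 0.36 with an adjusted p of 0.0165 with pairs, a fit that called 14.54% of all genes).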

How the data were processed

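Single-cell RNA was measured with a 10x Genomics 3′ kit in 14 libraries. The deposited files hold UMI counts per gene and cell barcode, which the authors made by aligning reads to mm10 (GRCm38) with WPRE added. The labels name Cell Ranger 5.0.1, while the file headers give 3.1.0 for 2 E14.5 control libraries and 5.0.1 for 12 libraries. Those with 3.1.0 were E14.5 controls 1 and 2. Version thus cannot be fully told apart from genotype at E14.5, or from stage in the control comparison. The alternative with 5.0.1 libraries only left 1 control library at E14.5 and was not run between stages. Total counts were 108239001 to 236964126 UMIs per library.

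Cells with at least 1000 genes and under 5% mitochondrial UMIs were kept (86757), and 6507 likely doublets were removed (the 7.5% with the highest doublet score in each library). The study states a limit of 1%, with criteria by age in code that was not used here, and under 1% only 1034 of 150188 barcodes would remain before any other filter. Each stage was clustered in scanpy 1.11.5 (2000 variable genes, 30 components, 15 neighbors, Leiden resolution 1) without the members and pathway genes. Clusters were named from fixed marker lists, with limits on the marker means set after these were seen. The members and lists were chosen with earlier results of these data known.

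UMIs were summed per library and state with at least 10 cells. Each comparison was fitted over all genes detected in 10% or more of either group's cells with edgeR 4.0.16 (TMM, quasi-likelihood test), with Benjamini-Hochberg adjustment over those genes and a call at an adjusted p under 0.05 and an absolute log2 change over 0.25. The step was tested on simulated counts that had no litter effect and larger changes than most genotype differences here. Its power for smaller differences between littermate libraries was not tested. Named genes were the 5 members, the called pathway genes whose libraries did not overlap (up to 3 that rose most and 3 that fell most), and the 3 genes most like each member. Alternatives were DESeq2 1.42.0, other filters, resolution 2, a pair block, Cell Ranger 5.0.1 libraries only, each library left out and, chosen after seeing the data, both E14.5 libraries of pair 2 left out. The study states that mutants had littermate controls, and the sample titles give replicate numbers. Deviations of same-numbered libraries from the group means correlated at 0.68 to 0.83 at E14.5 and 0.77 to 0.90 at E18.5. Same-numbered libraries were therefore taken as littermate pairs. The spread is that between embryos (between pools of pups at P5).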

Additional observations from a re-analysis of the deposited data

Results flagged for a closer look

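The genotype difference of Cdkn2d had opposite signs at the 2 embryonic stages. In all sorted cells the mutant was lower than its littermate in all 3 pairs at E14.5 (log2 ratios of -0.13, -0.27 and -0.31) and higher in all 3 pairs at E18.5 (0.02, 0.13 and 0.13). The difference between the stages was 0.35 on the log2 scale, and the edgeR interaction test without pairs gave an adjusted p of 0.523, which is not a call. With littermates as pairs the difference was 0.36 and was called (adjusted p = 0.0165), in a fit that called 14.54% of all genes. At E14.5 the mutant libraries also held more PN progenitor-like cells (4.57% to 7.87% against 1.28% to 2.22%), which are lower in Cdkn2d (62.5 CPM in controls) than PN differentiated neuron-like cells (118 CPM). Cycling progenitor-like cells were also more frequent in the mutant of all 3 pairs (7.98% to 14.3% against 4.64% to 9.52%). These held 95.5 CPM of Cdkn2d in controls, above the 83.6 to 89.8 CPM of all sorted control cells. The part of this makeup in the difference was not tested. Within cycling progenitor-like cells, Cdkn2d held 95.5 ± 3.53 CPM in controls and 72.3 ± 22.4 in mutants at E14.5, which overlap, and 99.8 ± 6.41 and 108.6 ± 1.47 at E18.5, which do not overlap, and neither difference was called.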

How the results depend on the processing

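The counts of called members depended mainly on whether littermates were treated as pairs. With the replicate block, 1 member test was called in PN-like states at E14.5 (Cdkn1c in PN differentiated neuron-like cells), 1 in PN-like states at E18.5 (Cdkn1c in ePN3-like cells), 1 in other classes at E14.5 (Cdkn1c in non-cycling progenitor-like cells), 2 in other classes at E18.5, 2 in all sorted cells at E14.5 and 1 for the interaction, where the unpaired fit called 0, 0, 0, 1, 0 and 0. The block changed no other count. It also raised the share of all genes called, to 17.6% in all sorted cells at E14.5, 14.54% for the interaction and 0.0196% to 3.06% in the other comparisons in which it called a member. DESeq2 called 1 in PN-like states at E18.5, and a mitochondrial limit of 4% left 0 in other classes at E18.5. Leaving out 1 library gave 0 to 1 calls in PN-like states at E14.5, 0 to 1 at E18.5 and 0 to 1 in other classes at E18.5. Between stages it gave 4 to 5 calls in all sorted cells, 4 to 4 in cycling progenitor-like cells and 2 to 3 in newborn neuron-like cells. Cdkn2d in newborn neuron-like cells changed sign at resolution 2 (0.0101, adjusted p = 0.919). The share of PN-like neurons with Cdkn1c differed by -10.03 points when thinned to 3000 UMIs and by -8.71 points at 2 UMIs or more, and by -7.90 to -2.59 points without 1 library. The falls of Cdkn1c between stages were called under all alternatives run. Leaving out both E14.5 libraries of pair 2, chosen after seeing the data, changed none of the counts between genotypes at E14.5 or for the interaction. It was not run for the comparisons between stages. The cause of these changes was not tested. The 1 member call of the main fits between genotypes came from a class with few cells, inhibitory neuron-like cells at E18.5. How cell number affects the calls was not tested.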
